A study of Mus musculus with 7 samples.

Results

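The genes described here are 48 regulators and effectors of the cell cycle and of DNA replication, out of 55335 genes counted in mouse neural stem cells (NSCs). They were chosen by symbol and fall into 4 groups by their place in the cycle. The 11 G1/S genes are the D- and E-type cyclins, their kinases, E2f1, E2f3 and Rb1. The 4 Cdk inhibitor genes are Cdkn1a, Cdkn1b, Cdkn2a and Cdkn2c. The 13 replication genes encode 6 subunits of the MCM helicase, loading factors, the sliding clamp and enzymes of nucleotide supply, and the 20 mitosis genes encode the A- and B-type cyclins, Cdk1, mitotic kinases, checkpoint proteins, motors and the transcription factor Foxm1.

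The comparison was of 4 wild-type (WT) NSC samples with 3 *Smchd1*-null ones. All were of the FVB/N mouse strain and were grown in a proliferation medium with epidermal growth factor and basic fibroblast growth factor, and the *Smchd1*-null cells carried the MommeD1 mutation of *Smchd1*, which encodes a chromatin protein of the SMC family that acts in gene silencing. Libraries were made by direct cDNA synthesis from polyA RNA, with no PCR, and were read on 2 nanopore flow cells, 1 for each of 2 batches, with different versions of the library kit. Batch 1 held WT replicate 2 with *Smchd1*-null replicates 1 and 2. In batch 2 were *Smchd1*-null replicate 3 and WT replicates 3 and 4, and WT replicate 1 was run in both. The labels give neither age nor the number of animals or cultures, so p-values measure only the spread between these samples, which may be technical.

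In a dividing cell, D-type cyclins with Cdk4 or Cdk6 and then E-type cyclins with Cdk2 phosphorylate the retinoblastoma protein Rb1, which releases E2F factors and turns on the genes of DNA replication. The MCM helicase is loaded on origins by Cdc6 and Cdt1, and later Cdk1 with the A- and B-type cyclins starts mitosis, which ends when the anaphase-promoting complex with Cdc20 destroys them. Cdk inhibitors such as p21 (Cdkn1a) and p27 (Cdkn1b) hold these kinases back, and neural stem cells kept in growth factors are known to cycle, while those that differentiate leave the cycle.

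The promoters of these genes are known for elements that time their transcription, and 6 of them are shown as examples. A link between these elements and the levels described below was not tested. Each is 160 bases long, runs 5′ to 3′ on the strand of the gene and ends upstream of the first base of the gene in the Gencode annotation, directly next to it for Cdk1, Top2a and Cdc20 (RefSeq sequence, build GRCm38.p6). Capitals mark matches on either strand to an E2F-type element (TTTCGCGC or TTTGGCGC), to the cell cycle gene homology region, or CHR (TTTGAA or TTCGAA), and to the CCAAT box. The 2 MCM promoters, at chr8:75109349-75109508 on the plus strand and chr1:128359706-128359865 on the minus strand, carry E2F-type elements, of which a pair overlaps in each.
Mcm5: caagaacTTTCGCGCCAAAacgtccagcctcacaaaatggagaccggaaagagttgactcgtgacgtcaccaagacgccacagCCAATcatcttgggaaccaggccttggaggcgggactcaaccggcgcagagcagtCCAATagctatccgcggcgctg
Mcm6: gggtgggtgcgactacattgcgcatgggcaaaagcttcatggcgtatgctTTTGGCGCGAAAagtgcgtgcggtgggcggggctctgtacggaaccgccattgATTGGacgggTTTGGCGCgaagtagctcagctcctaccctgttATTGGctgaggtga
The mitosis promoters carry CHR and CCAAT elements. They lie at chr10:69352939-69353098 on the minus strand (Cdk1, which also has an E2F-type match), chr11:99024190-99024349 on the minus strand (Top2a), chr19:37376222-37376381 on the plus strand (Kif11) and chr4:118437353-118437512 on the minus strand (Cdc20).
Cdk1: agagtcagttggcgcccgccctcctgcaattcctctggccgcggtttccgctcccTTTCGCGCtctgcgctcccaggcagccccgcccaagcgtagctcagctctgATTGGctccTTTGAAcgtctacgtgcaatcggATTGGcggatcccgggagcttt
Top2a: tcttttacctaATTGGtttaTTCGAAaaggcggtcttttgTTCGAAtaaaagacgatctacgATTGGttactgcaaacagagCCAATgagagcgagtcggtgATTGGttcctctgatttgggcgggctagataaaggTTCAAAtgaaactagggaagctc
Kif11: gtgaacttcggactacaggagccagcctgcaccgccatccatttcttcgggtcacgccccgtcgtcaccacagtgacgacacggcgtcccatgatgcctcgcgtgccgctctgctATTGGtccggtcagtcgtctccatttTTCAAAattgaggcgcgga
Cdc20: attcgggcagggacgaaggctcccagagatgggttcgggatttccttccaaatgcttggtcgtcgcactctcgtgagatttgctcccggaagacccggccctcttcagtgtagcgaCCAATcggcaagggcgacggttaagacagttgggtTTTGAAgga

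RefSeq promoter windows of 300 bases (250 before the start and 50 after it) were matched to 37 of the 48 genes, with 43 windows in all. An E2F-type match was found in 5 of the 12 windows of replication genes (41.7%), in 1 of 15 of mitosis genes (6.67%) and in none of the 9 windows of G1/S genes or the 7 of Cdk inhibitor genes, against 0.813% of all 32851 windows. A CHR match was found in 12 of the 15 windows of mitosis genes (80.0%) and in 2 of 12 of replication genes (16.7%), against 19.2% of all windows. CCAAT was found in 14 of the 15 mitosis windows (93.3%) and in 9 of the 12 replication windows (75.0%), against 37.4% of all. These are matches of letters in the window and no measurement of binding, and the members without a window were Ccnd1, Ccnd2, Ccne2, Rb1, Mcm4, Gins2, Ccna2, Aurkb, Kif20a, Tpx2 and Foxm1.

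Total counts ranged from 2741820 to 7736498 per sample. Levels are given as CPM, counts scaled by library size with factors from the trimmed mean of M-values, and 3 counts, taken as the limit of detection, corresponded to 0.399 to 1.13 CPM. Smchd1 itself had 66.9, 56.4, 74.7 and 55.7 CPM in the WT samples and 17.3, 12.8 and 18.4 CPM in the *Smchd1*-null samples, in the order of the replicate numbers used throughout (log2 fold change -2.15, adjusted p = 1.10e-04, limma), and every *Smchd1*-null sample lay below every WT sample. All 12 NSC markers were detected, with Fabp7, Vim, Olig2, Sox2 and Nes at 211 CPM or more in every sample. The others were lower, since the median over the 12 of the mean level was 79.9 CPM and the lowest single value 8.26 CPM. The 8 microglia and blood cell markers summed to 0.524 to 1.33 CPM in WT and 0.649 to 0.932 CPM in *Smchd1*-null samples, with C1qa, C1qb and Tyrobp at 0 throughout, and the 7 neuron markers to 372 to 419 CPM in WT and 361 to 382 CPM in *Smchd1*-null samples, of which Map2 made up at least 327 CPM. The 9 vessel and fibroblast markers summed to 8.88 to 22.95 CPM in WT and 5.63 to 12.3 CPM in *Smchd1*-null samples. WT replicate 4 stood apart from the other samples, with high astrocyte and oligodendrocyte markers. It had the lowest sample quality weight (0.447 against 0.654 to 2.03 in the other 6). The highest weights were those of *Smchd1*-null replicates 1 and 2, run in batch 1 (2.03 and 1.83). *Smchd1*-null replicate 3 had 0.674, and WT replicate 2, the WT sample run in batch 1 alone, had 0.654. The weighted genotype contrast therefore leans most on the *Smchd1*-null samples of batch 1.

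**Figure D1:**
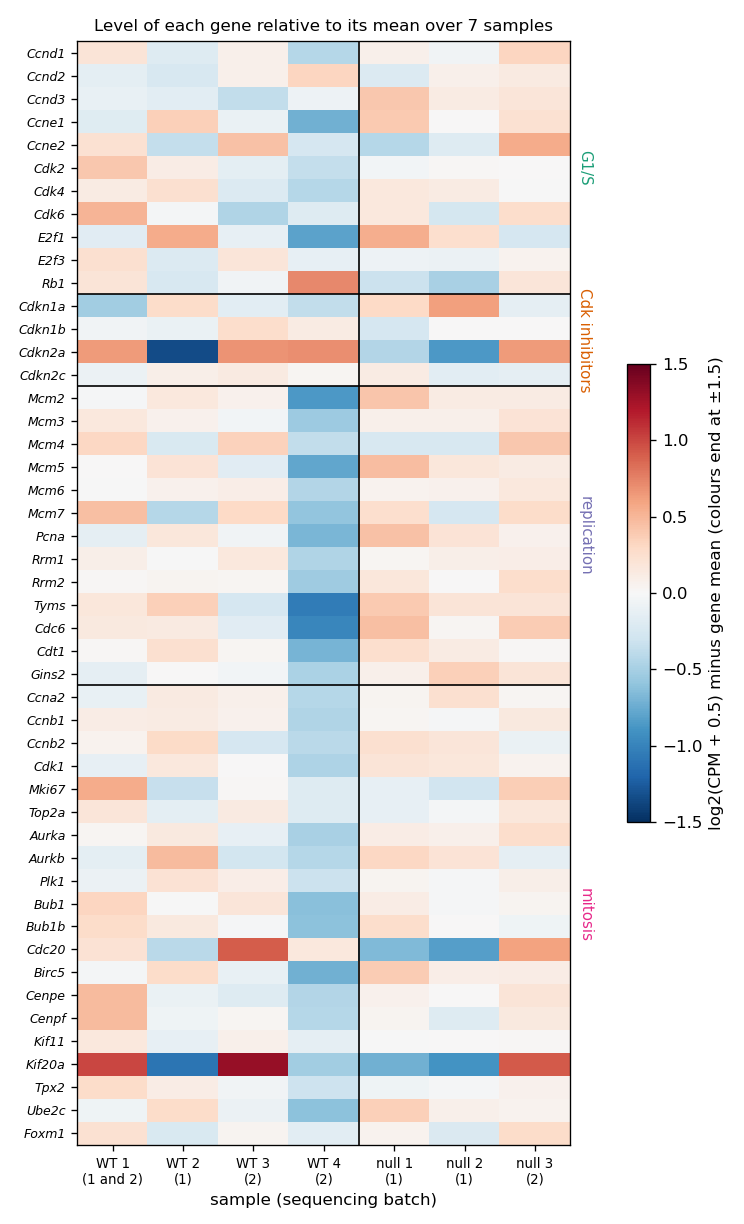
Level of each of the 48 genes (rows) in each sample (columns, with the sequencing batch in brackets), as log2(CPM + 0.5) minus the mean of the gene over the 7 samples, with red above and blue below the mean. The column of WT replicate 4 is blue in all 13 replication genes, and Cdkn2a, Cdc20 and Kif20a are blue in the 3 samples of batch 1 and red in those of batch 2, except Kif20a in WT replicate 4.

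All 48 genes were expressed, passed the filter on low counts and were tested. Their mean levels, not scaled by length, ran from 3.13 CPM in WT for Gins2 to 823 CPM for Ccnd2. None of the 48 passed an adjusted p of 0.05 or 0.25 for a difference between *Smchd1*-null and WT samples (limma with sample weights, Benjamini-Hochberg over 13305 genes), where 12 genes (0.0902%) and 144 genes (1.08%) passed over all tested. edgeR and DESeq2 called 0 of the 48 at 0.25 as well, where they called 8 (0.0601%) and 32 (0.241%) of all genes, and 0 at 0.05, where they called 0.00752% and 0.128%. At an unadjusted p under 0.05, 5 of the 48 (10.4%) differed in limma, against 13.9% of all genes tested, and these were Cdkn1a, Cdc20, Pcna, Mcm5 and Rb1. In both edgeR and DESeq2, 1 of the 48 did, Cdkn1a, against 5.07% and 4.46% of all genes.

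The intervals of the differences were narrow for most of the genes. For 44 of the 48 (91.7%) the 95% confidence interval excluded a 2-fold change in either direction, as it did for 77.6% of all genes tested, and the exceptions were Cdkn2a, Gins2, Cdc20 and Kif20a. The median log2 fold change was 0.00 over the 11 G1/S genes, -0.13 over the 4 Cdk inhibitor genes, 0.20 over the 13 replication genes and 0.01 over the 20 mitosis genes, beside 0.00 over all genes tested. In the replication group 11 of 13 fold changes were above 0, in the mitosis group 11 of 20, in the G1/S group 5 of 11. Among the inhibitors 1 of 4 was, beside 6737 of the 13305 genes tested. The signs within a group are not independent, as WT replicate 4 was the lowest sample for all 13 replication genes. The genotypes did not overlap in CPM for 2 of the 48 genes, Ccnd3 and Gins2, both higher in *Smchd1*-null samples, where 5.53% of all genes tested did not overlap, 2.52% in that direction and 3.01% in the other.

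**Figure D2:**
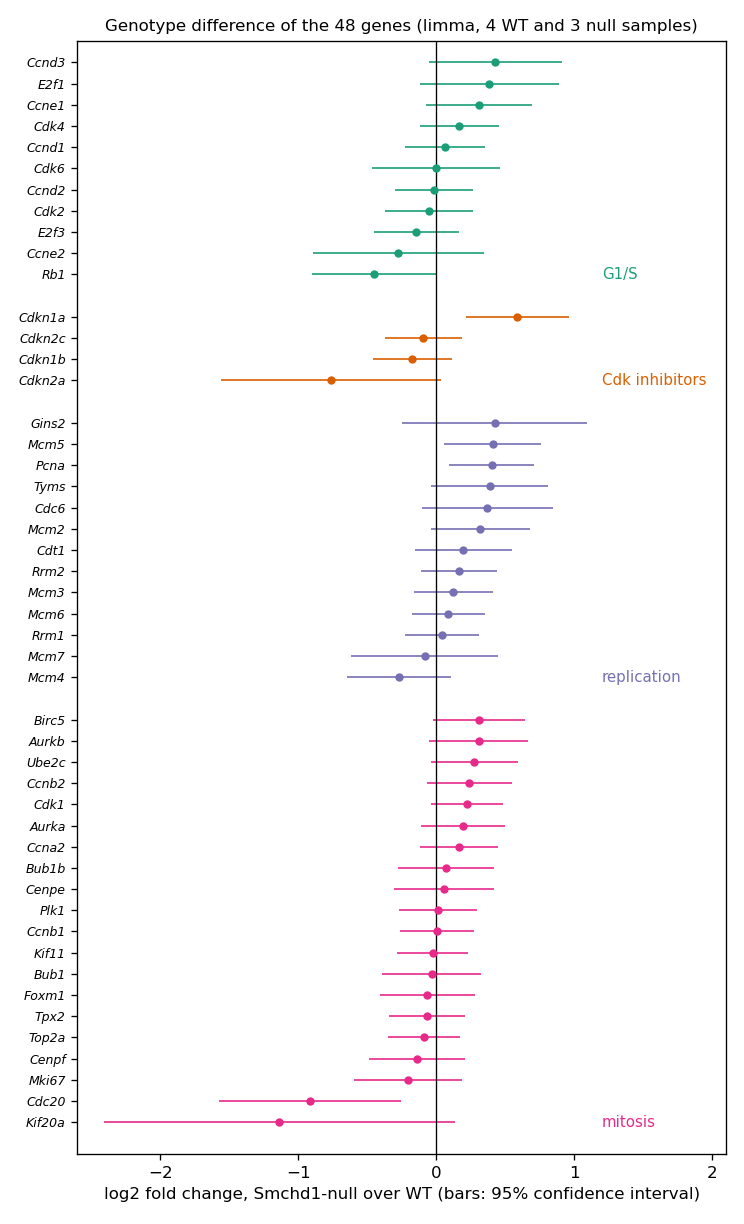
Log2 fold change of each gene between *Smchd1*-null and WT samples, with the 95% confidence interval as a bar, by group and ordered by size. The intervals of Cdkn1a, Pcna and Mcm5 lie above 0 and those of Cdc20 and Rb1 below it, before adjustment for the number of genes tested.

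The D-type cyclins sense growth factors and open the way out of G1. Ccnd2 had the most reads of the 48 genes, with 733, 688, 855 and 1016 CPM in the WT samples and 709, 856 and 892 CPM in the *Smchd1*-null samples (log2 fold change -0.01, 95% confidence interval -0.30 to 0.27). The highest of these values was that of WT replicate 4, and the genotypes overlapped. Ccnd1 had 358, 275, 331 and 233 CPM in the WT samples and 331, 302 and 391 CPM in the *Smchd1*-null samples, with the lowest value in WT replicate 4 (log2 fold change 0.07, 95% confidence interval -0.23 to 0.36). Ccnd3 was the scarce member of the family, with 8.55, 8.22, 7.08 and 8.75 CPM in the WT samples and 12.4, 10.1 and 10.6 CPM in the *Smchd1*-null samples. Every *Smchd1*-null sample was above every WT sample for Ccnd3, yet the difference did not pass the test (log2 fold change 0.43, 95% confidence interval -0.05 to 0.91, adjusted p = 0.398), and it was 0.43 within batch 1 and 0.41 within batch 2 in mean log2 CPM, where each batch held 1 sample of 1 genotype and 2 of the other with WT replicate 1 left out. Per kilobase of annotated exon, Ccnd2 stood at 73.1 to 108 CPM, Ccnd1 at 49.6 to 83.0 CPM and Ccnd3 at 0.807 to 1.41 CPM over the 7 samples, so that Ccnd2 made up 50.3 to 68.1% of the sum of the family and Ccnd3 at most 0.960%. On this scale Ccnd2 was more than 2 times Ccnd1 in WT replicate 4 alone, whereas in CPM it was so in every sample. A read count per kilobase is a rough scale here, since 1 long read can cover a whole transcript. Ccnd3 lies at chr17:47505051-47599691 on the plus strand. It shares 361 bases of exon with Bysl on the other strand and has a named pseudogene, Ccnd3-ps. Its count of 308 reads over all samples is therefore uncertain. Exon bases were shared with another gene in 18 of the 48 genes, in 16 of them on the other strand. Among these were Ccnd1 (1100 bases with LTO1), Ccnd2 (372 with Gm43126), Cdk4 (641 with Tspan31) and Ccne2 (609 with Ints8). Their levels per kilobase are uncertain for the same reason. Tyms, Ccnb1 and Ccnb2 also have named pseudogenes.

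The partner kinases of the D-type cyclins differed widely in level. Cdk4 had 247, 267, 196 and 168 CPM in the WT samples and 252, 246 and 225 CPM in the *Smchd1*-null samples. Cdk6 had 46.9, 32.2, 23.9 and 28.6 CPM in the WT samples and 36.8, 27.3 and 39.4 CPM in the *Smchd1*-null samples. Per kilobase Cdk4 made up 95.8 to 97.5% of the pair. Neither passed the test for genotype (log2 fold changes 0.17 with 95% confidence interval -0.12 to 0.45, and -0.0033 with 95% confidence interval -0.47 to 0.46). Cdk2, which acts with E-type cyclins, ranged from 65.0 to 111 CPM in WT and 81.1 to 84.4 CPM in *Smchd1*-null samples. Of the E-type cyclins, Ccne1 ranged from 31.4 to 67.3 CPM in WT and 52.6 to 68.7 CPM in *Smchd1*-null samples and Ccne2 from 5.55 to 9.96 CPM in WT and 5.26 to 10.8 CPM in *Smchd1*-null samples, and Ccne1 was the main form by level per kilobase in every sample, at 86.5 to 94.5% of the pair.

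Rb1, the brake on E2F factors, had 29.5, 21.8, 24.9 and 43.0 CPM in the WT samples and 20.6, 18.2 and 29.4 CPM in the *Smchd1*-null samples. WT replicate 4 was the highest of the 7, and the other 3 WT samples lay within the range of the *Smchd1*-null samples or just outside it (log2 fold change -0.45, 95% confidence interval -0.90 to -0.0022, adjusted p = 0.359). Without WT replicate 4 the log2 fold change was -0.34, and with batch as a covariate -0.16. E2f1, an activator of S phase genes, ranged from 12.5 to 32.9 CPM in WT and 18.6 to 32.7 CPM in *Smchd1*-null samples (log2 fold change 0.38, adjusted p = 0.451), and was -0.05 with batch as a covariate. E2f3 ranged from 39.1 to 53.5 CPM in WT and 42.5 to 47.0 CPM in *Smchd1*-null samples.

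Among the inhibitors, Cdkn1a was the gene of the 48 with the smallest p. Cdkn1a encodes p21, a target of p53 that blocks Cdk2 and Cdk1 complexes, and lies at chr17:29090976-29100727 on the plus strand. It had 408, 710.1, 525 and 454 CPM in the WT samples and 725, 899.8 and 537 CPM in the *Smchd1*-null samples. The mean was 524 ± 133 CPM for WT (SD, n = 4) and 721 ± 181 CPM for the *Smchd1*-null samples (SD, n = 3), and the groups overlapped, since WT replicate 2 lay above *Smchd1*-null replicate 3. The fitted log2 fold change was 0.59 (SE 0.17, 95% confidence interval 0.21 to 0.96), with an unadjusted p of 0.00449 and an adjusted p of 0.275 (limma), just above the wider cutoff of 0.25. The 3 samples of batch 1 held the 3 highest values, and with batch as a covariate the log2 fold change was 0.23, while the difference in mean log2 CPM was 0.19 within batch 1 and 0.14 within batch 2.

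Cdkn2a encodes p16Ink4a and p19Arf from overlapping reading frames, which act on Cdk4 and Cdk6 and on p53, and a count per gene cannot separate them. It lies at chr4:89274471-89294653 on the minus strand and had 112, 28.2, 115 and 117 CPM in the WT samples and 52.9, 39.4 and 112 CPM in the *Smchd1*-null samples. WT replicate 2 was far below the other WT samples, and *Smchd1*-null replicate 3 far above the other *Smchd1*-null samples, so that the values followed the batch more than the genotype. The genotype difference did not pass the test (log2 fold change -0.76, 95% confidence interval -1.56 to 0.03, adjusted p = 0.376), and with batch as a covariate it turned to 0.14. The other inhibitors varied little. Cdkn1b, which encodes p27, had 101, 97.1, 126 and 114 CPM in the WT samples and 87.8, 105 and 105 CPM in the *Smchd1*-null samples (log2 fold change -0.17, 95% confidence interval -0.46 to 0.11). Cdkn2c, which encodes the Cdk4 and Cdk6 inhibitor p18Ink4c, had 81.1, 91.5, 94.4 and 88.0 CPM in the WT samples and 93.5, 76.9 and 78.6 CPM in the *Smchd1*-null samples (log2 fold change -0.09, 95% confidence interval -0.37 to 0.18). Of 3 further inhibitor genes, Cdkn1c, Cdkn2b and Cdkn2d, none was called, with a smallest adjusted p of 0.595.

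As Cdkn1a is a p53 target, 18 other p53 targets were examined in the same fit. None passed an adjusted p of 0.25 (limma), and the smallest was 0.292. At an unadjusted p under 0.05, 5 of the 18 were higher in *Smchd1*-null samples and 0 lower, where 946 genes (7.11%) were higher and 897 (6.74%) lower among the 13305 tested, and edgeR and DESeq2 each gave 1 of the 18 beside 5.07% and 4.46% of all genes. These 5, like the other p53 targets named here, were chosen after their values were seen. They were Phlda3, an inhibitor of Akt (0.48 in log2 fold change), Bax and Bbc3, which promote apoptosis (0.42 and 0.41), the nuclease gene Aen (0.35) and the kinase gene Plk2 (0.34). Mdm2, which encodes the ubiquitin ligase of p53, had a log2 fold change of -0.17 and Ccng1 of -0.15, and 9 of the 18 were above 0 and 9 below, with a median of 0.02. Phlda3 and Bbc3 were also lower in batch 2 (adjusted p = 0.00707 and 0.0239), as Cdkn1a was, and Ccng1 was higher there (adjusted p = 0.00705).

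**Figure D3:**
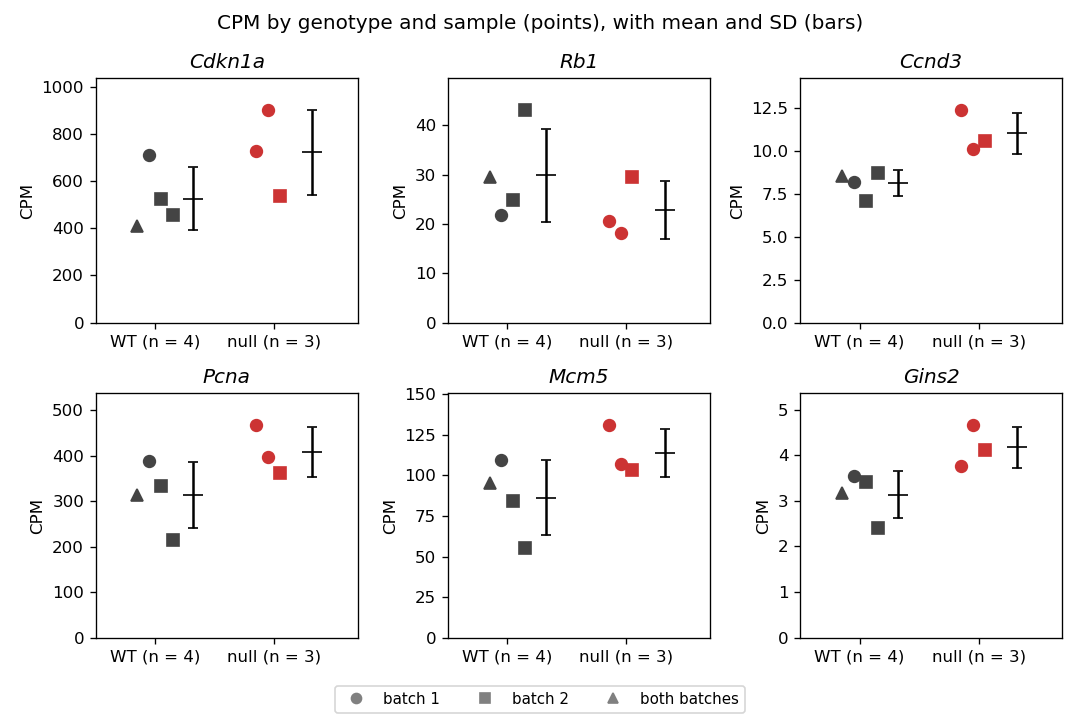
CPM of 6 genes in each sample by genotype, with the mean and SD beside the points, and the batch as the shape of the point. Cdkn1a, Pcna and Mcm5 have higher means in *Smchd1*-null samples, Ccnd3 and Gins2 do not overlap, and WT replicate 4 is the highest point of Rb1 and the lowest of Pcna and Mcm5.

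The MCM subunits form the ring-shaped helicase that unwinds DNA at origins. Mcm2 had 106, 119.9, 112 and 59.2 CPM in the WT samples and 144, 118 and 117 CPM in the *Smchd1*-null samples, with WT replicate 4 far below the other 6 samples (log2 fold change 0.32, adjusted p = 0.399). Mcm3 had 143, 135, 125 and 88.1 CPM in the WT samples and 136, 136 and 148 CPM in the *Smchd1*-null samples (log2 fold change 0.13), and Mcm6 had 148, 155, 158 and 109 CPM in the WT samples and 154, 156 and 166 CPM in the *Smchd1*-null samples (log2 fold change 0.09). In both, 6 samples lay close together and WT replicate 4 below them. Mcm5, at chr8:75109569-75128439 on the plus strand, had 95.5, 109.7, 84.4 and 55.4 CPM in the WT samples and 131, 107 and 103 CPM in the *Smchd1*-null samples. The 2 highest values of Mcm5 were in batch 1, 1 of each genotype, and the lowest was in WT replicate 4 (log2 fold change 0.41, 95% confidence interval 0.06 to 0.76, adjusted p = 0.322). Mcm4 had 162, 111, 166 and 101 CPM in the WT samples and 110.4, 110.3 and 173 CPM in the *Smchd1*-null samples, and its 3 values over 160 CPM were those of WT replicates 1 and 3 and *Smchd1*-null replicate 3 (log2 fold change -0.27). Mcm7 had 24.7, 13.1, 22.0 and 11.7 CPM in the WT samples and 21.4, 14.9 and 21.6 CPM in the *Smchd1*-null samples, far fewer reads than the other subunits.

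Though the subunits form a ring with 1 copy of each, their read counts were unequal. Per kilobase of exon, Mcm4 ranged from 28.1 to 48.1 CPM, Mcm3 from 23.5 to 39.4 CPM, Mcm6 from 23.4 to 35.6 CPM, Mcm5 from 13.9 to 32.8 CPM and Mcm2 from 8.50 to 20.7 CPM, and these neighbours overlapped over samples. Mcm7 stood apart at 2.63 to 5.57 CPM, or 2.00 to 3.49% of the sum over the 6 genes. The exons of Mcm7 overlap those of Cops6, Ap4m1 and the microRNA genes Mir25 and Mir93, and how reads over 2 genes were assigned is not given in the sources used here, and its part in the count of Mcm7 was not tested. Overlap also concerns Gins2, a subunit of the GINS complex that activates the helicase, which shares 2758 of its 4097 exon bases with Gse1 on the other strand. Gins2 had 3.17, 3.55, 3.41 and 2.40 CPM in the WT samples and 3.75, 4.66 and 4.11 CPM in the *Smchd1*-null samples, without overlap between genotypes but with only 120 reads in all (log2 fold change 0.42, 95% confidence interval -0.25 to 1.09, adjusted p = 0.537).

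Pcna encodes the sliding clamp of the replicative polymerases and lies at chr2:132249162-132253314 on the minus strand. It had 314, 389, 332 and 215 CPM in the WT samples and 467, 396 and 361 CPM in the *Smchd1*-null samples. All 3 *Smchd1*-null samples were above 3 of the 4 WT samples, and WT replicate 2 was above *Smchd1*-null replicate 3 (log2 fold change 0.40, 95% confidence interval 0.09 to 0.71, adjusted p = 0.2998). The 3 highest values were those of batch 1, from both genotypes. With batch as a covariate the log2 fold change was 0.23, and without WT replicate 4 it was 0.31. The difference in mean log2 CPM was 0.15 within batch 1 and 0.43 within batch 2. The named pseudogenes Pcna-ps1 and Pcna-ps2 could take or give reads.

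Of the genes of nucleotide supply, the ribonucleotide reductase subunit gene Rrm2 ranged from 237 to 354 CPM in WT and 345 to 411 CPM in *Smchd1*-null samples (log2 fold change 0.16), Rrm1 from 129 to 197 CPM in WT and 181 to 189.6 CPM in *Smchd1*-null samples (0.04), and the thymidylate synthase gene Tyms from 35.3 to 94.6 CPM in WT and 84.1 to 97.2 CPM in *Smchd1*-null samples (0.39). The origin loading factors Cdc6 and Cdt1 had log2 fold changes of 0.37 and 0.20. For all 5 the lowest value was that of WT replicate 4, and none passed the test. With this sample left out, the median log2 fold change of the 13 replication genes was 0.09 in place of 0.20.

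The kinase that starts mitosis comes first among the mitotic genes. It is encoded by Cdk1, which had 315, 384, 344 and 248 CPM in the WT samples and 390.4, 385 and 356 CPM in the *Smchd1*-null samples (log2 fold change 0.22, 95% confidence interval -0.04 to 0.49, adjusted p = 0.409). Its cyclin partner Ccnb1 had 198, 200.1, 192 and 134 CPM in the WT samples and 187, 181 and 203 CPM in the *Smchd1*-null samples (log2 fold change 0.00, 95% confidence interval -0.27 to 0.27). In both genes WT replicate 4 was the lowest sample, and the other 6 overlapped between genotypes. The proliferation marker Mki67 had 278, 149, 191 and 165 CPM in the WT samples and 173, 154 and 244 CPM in the *Smchd1*-null samples, with the highest value in WT replicate 1 and the lowest in WT replicate 2 (log2 fold change -0.21, 95% confidence interval -0.60 to 0.18). Top2a, the topoisomerase that untangles sister chromatids, had 429, 341, 415 and 330.3 CPM in the WT samples and 348, 369.6 and 426 CPM in the *Smchd1*-null samples (log2 fold change -0.09, 95% confidence interval -0.35 to 0.17). All 4 intervals lay between -0.60 and 0.49 on the log2 scale.

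Cdc20 activates the anaphase-promoting complex and lies at chr4:118432901-118437352 on the minus strand. It had 24.7, 15.8, 40.1 and 23.5 CPM in the WT samples and 13.1, 11.7 and 32.3 CPM in the *Smchd1*-null samples. The 3 lowest values were those of batch 1, from both genotypes, and the 2 highest those of WT replicate 3 and *Smchd1*-null replicate 3 of batch 2. Its genotype difference had the second smallest p of the 48 (log2 fold change -0.91, SE 0.31, 95% confidence interval -1.57 to -0.26, unadjusted p = 0.00991, adjusted p = 0.288, limma), and was -0.21 with batch as a covariate. Kif20a, a kinesin of the midbody, had the largest fitted difference (-1.14, 95% confidence interval -2.41 to 0.13) on few reads, with 7.33, 1.33, 9.18 and 2.23 CPM in the WT samples and 1.88, 1.60 and 6.93 CPM in the *Smchd1*-null samples and 133 reads in all. It shares 1271 of its 4338 exon bases with Cdc23 on the other strand, which leaves its count uncertain.

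The other 14 mitosis genes had log2 fold changes from -0.14 (the centromere protein gene Cenpf) to 0.31 (Birc5, which encodes survivin). The mitotic kinase genes Aurka, Aurkb, Plk1 and Bub1 had 0.19, 0.31, 0.01 and -0.03. The cyclin genes Ccna2 and Ccnb2 had 0.17 and 0.24, the checkpoint gene Bub1b 0.07, and the ubiquitin-conjugating enzyme gene Ube2c 0.28. The spindle motor gene Kif11 had -0.03, with 90.5, 91.3 and 91.8 CPM in the *Smchd1*-null samples, and the kinetochore motor gene Cenpe, the spindle factor gene Tpx2 and Foxm1, a factor that switches on mitotic genes, had 0.06, -0.07 and -0.06. None of the 14 passed the test in the main limma fit at any cutoff, unadjusted p under 0.05 included. Some of them, such as Aurkb, were called with 1 sample left out, as described below.

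WT replicate 4 stood lowest for most of these genes. It was the lowest sample for 34 of the 48 genes (70.8%), where it was lowest for 22.2% of all genes tested and highest for 22.9%. All 13 replication genes, 16 of the 20 mitosis genes and 5 of the 11 G1/S genes were lowest there, but none of the 4 inhibitors. The summed level of the replication genes was 1683, 1737, 1677 and 1081 CPM in the WT samples and 1914, 1729 and 1853 CPM in the *Smchd1*-null samples, so WT replicate 4 stood at 61.2% of the mean of the other 6 samples. The mitosis genes summed to 2905, 2834, 2677 and 2019 CPM in the WT samples and 2881, 2715 and 2876 CPM in the *Smchd1*-null samples, or 71.7% in WT replicate 4. By contrast the G1/S genes summed to 1661, 1526, 1644 and 1654 CPM in the WT samples and 1592, 1673 and 1809 CPM in the *Smchd1*-null samples, and the inhibitors to 702, 927, 859.7 and 774 CPM in the WT samples and 959, 1121 and 833 CPM in the *Smchd1*-null samples, with WT replicate 4 inside the range of the others. Ccnd2, the gene with the most reads in the G1/S sum, was highest in this sample and alone gave 1016 of its 1654 CPM. The median over the 11 G1/S genes of log2 CPM minus the mean of the gene was nevertheless lowest in WT replicate 4. It was -0.25 there, against -0.16 to 0.19 in the other 6 samples, so the unchanged G1/S sum does not describe most of its genes. *Smchd1*-null replicate 3 was the lowest sample for 0 of the 48 genes, and for 9.54% of all genes tested.

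Markers of glia were high in WT replicate 4. The 7 oligodendrocyte markers, all of them detected, summed to 118 to 699 CPM in WT and 159 to 170.2 CPM in *Smchd1*-null samples, and the 699 CPM of WT replicate 4 compare with 118 to 254 CPM in the other 6 samples. Its Mbp was 96.2 CPM against at most 4.44 CPM elsewhere, whereas Mog, a marker of mature oligodendrocytes, stayed at or below 1.13 CPM in every sample and was at 0 in WT replicates 2 and 3 and *Smchd1*-null replicate 2. The 6 astrocyte markers summed to 43.0 to 179.9 CPM in WT and 44.3 to 59.96 CPM in *Smchd1*-null samples, with 43.0 to 59.96 CPM outside WT replicate 4, and Gjb6 was at 0 in all samples but that one. The inhibitor Cdkn1c, known for its part in cell cycle exit and named here after its values were seen, was 90.0 CPM in WT replicate 4 against at most 14.9 CPM elsewhere. The summed NSC markers were also highest there, at 13337 CPM against 8816 to 10886 CPM, and so were the summed neuron markers, at 419 CPM against 361 to 400 CPM. In bulk RNA, fewer cycling cells and less cell cycle RNA per cell cannot be told apart, and the part of the glial markers in the lower levels was not tested. The markers that passed the filter and were tested were 12 NSC, 6 neuron, 5 oligodendrocyte, 4 astrocyte, 1 vessel and fibroblast and 0 microglia and blood cell markers. None of those tested differed between genotypes at an adjusted p of 0.25 (limma). At an unadjusted p under 0.05 limma gave 1 NSC marker higher and 3 lower in *Smchd1*-null samples. It gave 1 neuron, 1 oligodendrocyte, 1 vessel and 0 astrocyte markers lower, beside 7.11% of all genes higher and 6.74% lower. At that p, edgeR gave 2 NSC, 1 neuron, 2 oligodendrocyte, 1 vessel and 1 astrocyte markers in either direction, beside 5.07% of all genes. DESeq2 gave 2, 1, 0, 1 and 1 in the same order, beside 4.46% of all genes. WT replicate 3, run in the same batch, had neither the low replication sum nor the high glial sums.

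**Figure D4:**
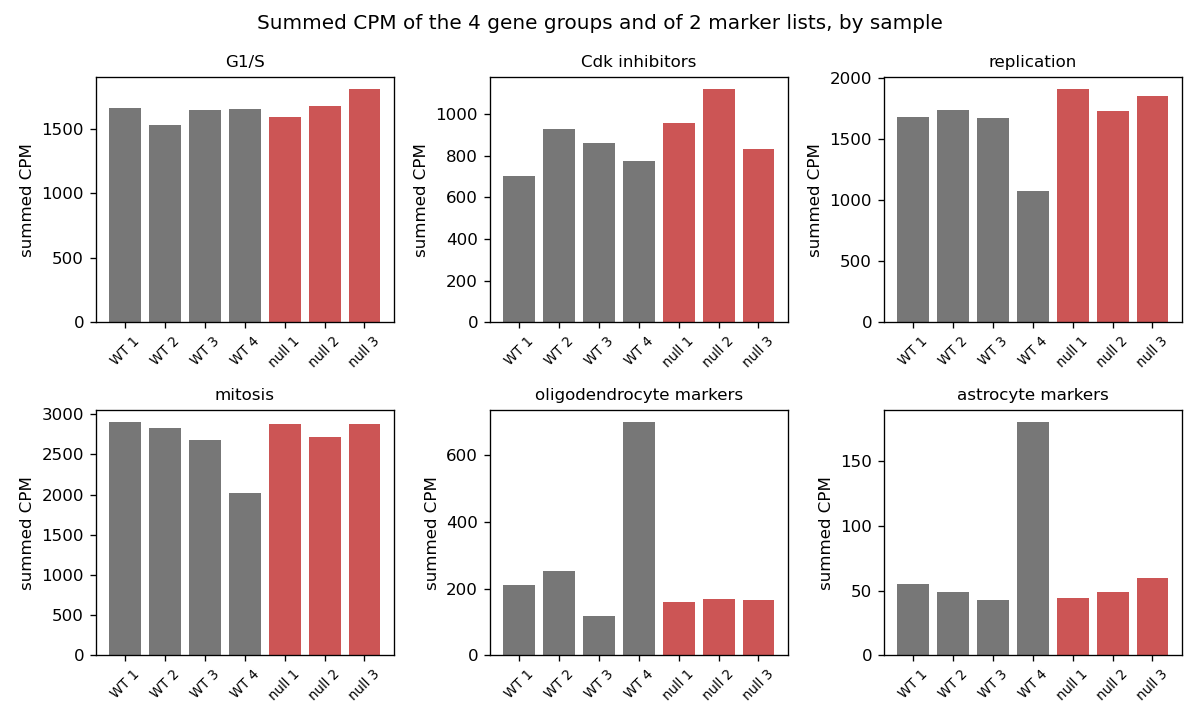
Summed CPM of the 4 gene groups and of the oligodendrocyte and astrocyte markers in each sample, with WT in grey and *Smchd1*-null in red. WT replicate 4 has the lowest replication and mitosis sums and the highest sums of both marker lists.

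Several of the genes differed between the sequencing batches. In a fit with genotype and batch, chosen after seeing the data and with WT replicate 1 set midway, 10 of the 48 (20.8%) passed an adjusted p of 0.05 for batch, where 1652 of 13305 (12.4%) did over all genes. In this limma fit 6 were higher in batch 2 and 4 lower, beside 5.55% and 6.87% of all genes. Cdkn2a was the clearest, at 1.59 (95% confidence interval 1.16 to 2.03, adjusted p = 9.21e-04) in log2 difference of batch 2 over batch 1, or 3.02-fold. Its 3 batch 1 samples had 28.2 to 52.9 CPM and its 3 batch 2 samples 112 to 117 CPM, with WT replicate 1 at 112 CPM. Cdc20 differed by 1.25 (95% confidence interval 0.85 to 1.65, adjusted p = 0.00249) and Kif20a by 1.89 (95% confidence interval 0.92 to 2.86, adjusted p = 0.0178). Kif20a was nevertheless at only 2.23 CPM in WT replicate 4 of batch 2, near its batch 1 values. The other 3 genes higher in batch 2 were Rb1, Mcm4 and Mki67, by 0.56, 0.53 and 0.47.

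The 4 genes lower in batch 2 were E2f1, Aurkb, Cdkn1a and Ccnb2, with differences of -0.78, -0.58, -0.55 and -0.43 on the log2 scale. E2f1 was at 26.6 CPM or more in the 3 samples of batch 1 and at 20.4 CPM or less in the 3 of batch 2. The batch calls depended on the test and on single libraries. edgeR called 0 of the 48 (0.248% of all genes) and limma without sample weights 1, Cdkn2a (0.210% of all genes), and with WT replicate 2 or *Smchd1*-null replicate 3 left out limma also called 0. As 2 of the 3 *Smchd1*-null samples but only 1 of the 4 WT samples were run in batch 1 alone, genotype and batch overlap in part in these samples, and both contrasts rest on the same 7 libraries.

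**Figure D5:**
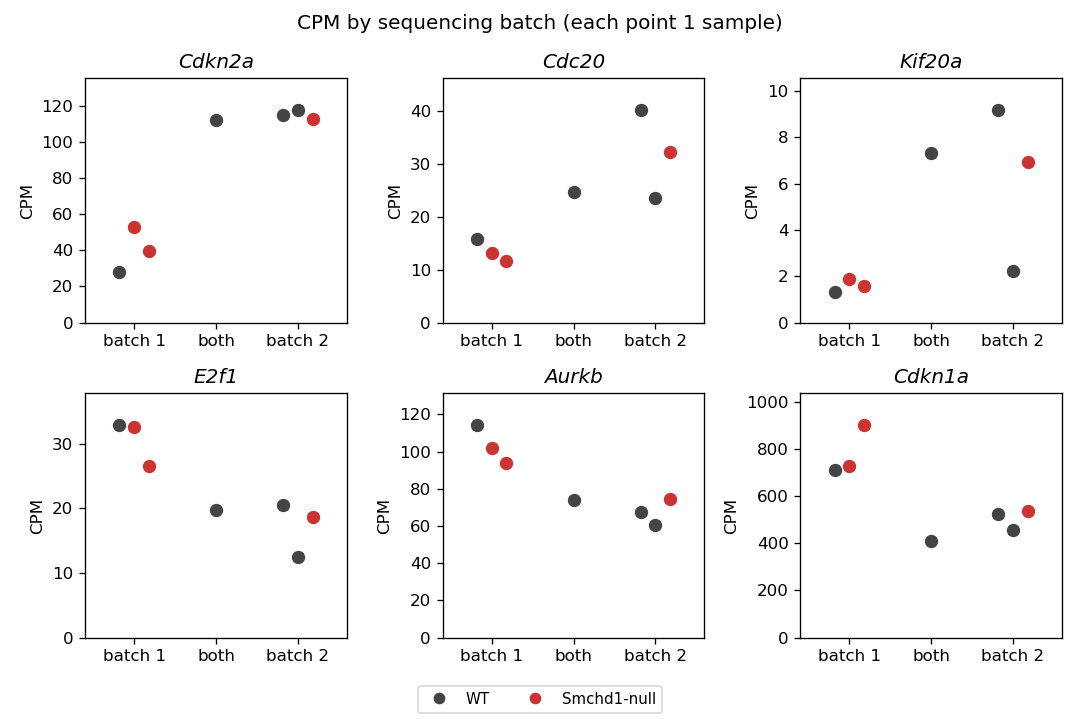
CPM of 6 genes in each sample by sequencing batch, with WT in grey and *Smchd1*-null in red and with WT replicate 1, run in both batches, in the middle. Cdkn2a and Cdc20 are lower, and E2f1, Aurkb and Cdkn1a higher, in all 3 batch 1 samples than in all 3 batch 2 samples, whatever the genotype.

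Leaving out single libraries also changed the genotype calls. Without *Smchd1*-null replicate 3, 10 of the 48 (20.8%) passed an adjusted p of 0.25, among them Cdkn1a, Cdc20, Pcna, Mcm5 and Rb1, but so did 3153 genes (23.5%) over all tested. Without WT replicate 2, 17 of the 48 (35.4%) passed, and 2924 genes (22.7%) over all. Each of these samples is the one of its genotype run in the batch where the other genotype had 2, so that without it the genotypes and the batches are further aligned. Without any other single library 0 of the 48 passed. Where genes were required to have at least 10 counts in every sample, Cdkn1a and Cdc20 passed at adjusted p = 0.236 and 0.248 (limma), beside 3.06% of all genes, and over all alternatives the adjusted p of each ranged from 0.0446 to 1.00.

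Further genes of the same pathways were counted from lists of their own. Of 24 other G1/S control genes, 46 other replication genes and 46 other mitosis genes, 23, 44 and 46 were tested and none passed an adjusted p of 0.25 (limma), with smallest adjusted p of 0.336, 0.321 and 0.350. At an unadjusted p under 0.05, 3 G1/S control genes were higher in *Smchd1*-null samples and 2 lower, 2 replication genes were higher and 1 lower, and 1 mitosis gene was higher and 0 lower, beside 13.9% of all genes in either direction. At that p, edgeR and DESeq2 gave 0 genes in all 3 lists, beside 5.07% and 4.46% of all genes. Median log2 fold changes were 0.09, 0.15 and 0.00, beside 0.00 over all genes tested, and without WT replicate 4 they were -0.01, 0.06 and -0.06. That sample was the lowest for 12 of 23, 33 of 44 and 33 of 46 of them, and for 22.2% of all genes tested. Between batches, 1, 3 and 3 of them passed an adjusted p of 0.05, beside 12.4% of all genes. Fen1, the flap endonuclease gene of lagging strand synthesis, had only 2 reads in all samples together, a case singled out after its values were seen. Its exons share 1909 bases with the antisense gene Gm10143, which had 16 reads, so the count of Fen1 is uncertain as a measure of its level.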

How the data were processed

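Direct-cDNA nanopore reads of NSCs were measured in 7 samples. The deposited values were whole-number read counts per gene. Per the study's methods and the submitters' processing notes, the authors aligned reads with minimap2 2.17 to mm10 and assigned primary alignments to genes by the long-read mode of featureCounts, with a Gencode annotation of GRCm38.p6, and summed the reads of WT replicate 1 over both batches. The notes also name edgeR 3.26.5 and limma 3.40.6. The strand setting and the treatment of reads over more than 1 gene are not given in the sources used here.

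The model followed the study's methods: filterByExpr (13305 of 55335 genes kept), TMM factors, voom with sample quality weights and limma 3.58.1 (R 4.3.3), genotype as the only term, two-sided tests and Benjamini-Hochberg adjustment over all genes kept. Cutoffs were adjusted p of 0.05 and 0.25. CPM were computed with the TMM factors, log-CPM with a prior count of 2, and intervals at 95%. The batch fit added batch as a number (0.5 for WT replicate 1). Alternatives used edgeR 4.0.16, DESeq2 1.42.0, other scalings and filters, batch, replicate number, gene length (lowess span 0.3), thinned counts and each sample left out. The scripts were tested on simulated data with known changes.

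Totals ranged from 2741820 to 7736498 counts, and floors of 3 counts cover counting error only. Replicates of a genotype differed by more than sampling noise, so each was counted once. Gene positions come from a Gencode annotation of GRCm38.p6, to which 55154 of 55335 gene IDs were matched with the version ignored, and promoters from RefSeq. The members and lists were chosen with earlier results of these data known. Values in every sample are given for the cyclin D, Cdk4, Cdk6, inhibitor and MCM genes, Pcna, Ccnb1, Cdk1, Mki67, Top2a, the 2 genes of largest absolute log2 fold change in each group, and genes without overlap. Other pathway genes were to be named only at an adjusted p under 0.25, and those named otherwise are said to be. Claspn, a listed replication gene, had no match among the symbols. The values of 1 marker gene are not reported here.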

Additional observations from a re-analysis of the deposited data

Results flagged for a closer look

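In 5 of the 52 results examined over the 4 WT samples, 1 sample lay far from the others by Dixon's test at its 95% critical value. Chance alone sets apart about 1 in 20 groups, or 2.6 of 52, and groups of 3 such as the *Smchd1*-null samples were not tested. Cdkn2a in WT replicate 2 was at 4.84 in log2 CPM against 6.81 to 6.88 in the other WT samples. Rrm2 in WT replicate 4 was at 7.89 against 8.44 to 8.47, and Ccnb1 in WT replicate 4 at 7.08 against 7.59 to 7.65. The summed CPM of the replication genes in WT replicate 4 was 10.08 on the log2 scale against 10.71 to 10.76. The summed CPM of the G1/S genes in WT replicate 2 was 10.58 on the log2 scale against 10.68 to 10.70. Of the 5, 3 concern WT replicate 4, each as the lowest sample.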

How the results depend on the processing

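Over all genes, 12 were called at an adjusted p of 0.05, and 1 with edgeR, 1 without sample weights, 2 with all genes that had a count, 19 with batch as a covariate, 5 with that covariate and without WT replicate 1, and 1 to 161 with 1 sample left out. At 0.25, 144 were called, and 8 with edgeR, 32 with DESeq2, 10 without sample weights, 22 with all genes that had a count, 346 with at least 10 counts in every sample, 74 with batch as a covariate, 31 with that covariate and without WT replicate 1, 74 with the length trend removed, and 1 to 3153 with 1 sample left out (1 without *Smchd1*-null replicate 1, 3153 without replicate 3). Of the 48 genes, 0 to 2 were called at 0.05 with 1 sample left out (2 without *Smchd1*-null replicate 3) and 0 to 17 at 0.25 (17 without WT replicate 2), and 2 with at least 10 counts in every sample. Between batches 10 were called, and 0 with edgeR, 1 without sample weights and 0 to 10 with 1 sample left out (0 without WT replicate 2 or *Smchd1*-null replicate 3, 5 without *Smchd1*-null replicate 2, 6 without WT replicate 3). In 978 pairs of gene and alternative, 29 fold changes newly passed the threshold and 137 changed sign, of which 20 were larger than their standard error or called and count as reversed. Under the batch covariate, the log2 value of E2f1 was -0.054, of Aurkb -0.037, of Cdkn2a 0.14, of Mcm4 0.048, of Mki67 0.12 and of Kif20a 0.12, and the inhibitor median 0.031. Without WT replicate 1 as well, they were -0.086, -0.071, 0.27, 0.12, 0.26 and 0.36, and 0.020. Mki67 ranged from -0.33 to 0.045 with 1 sample left out. The cause of these reversals was not tested.

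A replicate block on the sample number gave 23 genes at 0.05, and 44 genes with the length trend removed as well, but 0 of the 48 in either. The log2 fold changes of E2f1 and Cdt1 turned to -0.083 and -0.016 under the block, and with length removed as well those of E2f1, Cdt1, Ccnb2, Mki67 and Aurkb were -0.064, -0.017, -0.020, 0.033 and -0.0021. The deviations of same-numbered samples correlated at -0.04, 0.36 and 0.09, not all over 0.1, and WT replicate 4 has no partner. The samples numbered 2 were both run in batch 1 and those numbered 3 both in batch 2. The block therefore follows the batch in part, and these correlations cannot tell what else same-numbered samples share. Replicates 2 and 3 of WT correlated best with their own numbers, but WT replicate 1 (0.24 with *Smchd1*-null replicate 3) and *Smchd1*-null replicates 1 and 3 did not.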
